A study of Mus musculus with 8 samples.

Results

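Expression of 9 stromal surface molecules was examined in the sorted bone marrow populations. The genes Icam1, Vcam1, Cd24a, Alcam, Eng, Thy1, Cd44, Cd200 and Itgav were chosen by name among 49315 counted genes, and each symbol matched 1 Ensembl gene. RNA-seq libraries were available for 7 sorted populations (clusters 1 to 7) and for input bone marrow cells, all from wild type C57BL/6J mice aged 6 weeks by their labels. The methods of the study name C57BL/6JJcl mice and a wider age range, and how many mice were pooled for each of these libraries is not given in the sources used here. Each population had 1 library, so differences between populations could not be tested against the spread between sorts, and no p-value is given. The study defined the 7 clusters in single cells sorted as positive for Sca-1 and PDGFR-α, and its sorting antibodies include 1 against PDGFR-α (CD140a). Every sort excluded cells positive for the endothelial antigen CD31, the leukocyte antigen CD45 or the erythroid antigen Ter119. Cluster 1 was then gated as CD24-, Sca-1+ and CD39+, cluster 2 as Ly-6C-, CD24- and CD39-, and cluster 3 as Ly-6C+, CD24+ and negative on a joint axis of CD39 and CD54. Cluster 4 was gated as Ly-6C-, CD24- and CD54+, and cluster 5 as CD54+, CD121b- and negative on a joint axis of CD24 and Ly-6C. Cluster 6 was gated as CD24+, Sca-1- and CD39-, and cluster 7 as CD54-, Sca-1+ and negative on that joint axis. The Sca-1- gate of cluster 6 differs from the Sca-1+ gate of the single cells. The gates were read from the sorting plots of the study, whereas the extraction protocol in the labels describes crushed marrow for all 8 libraries.

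Icam1 encodes ICAM-1 (CD54) and Vcam1 encodes VCAM-1 (CD106), immunoglobulin family adhesion molecules that bind leukocyte integrins and hold blood cells to endothelium and stroma. Eng (endoglin, CD105), Thy1 (CD90), Cd44 (the hyaluronan receptor), Alcam (CD166) and Vcam1 are widely used to define marrow stromal cells in culture. Cd200 and Itgav (integrin αV, CD51) mark skeletal stem cells in mice, where Thy1 and Eng mark cells further along the lineage. Cd24a encodes CD24, a small glycosylated surface protein that is also abundant on developing B cells, neutrophils and red cell precursors.

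The libraries held 24205863, 25349917, 27102715, 32549319, 12833648, 31669132 and 33238133 counts in clusters 1 to 7, and 20162876 counts in the input. Levels are given as RPKM, reads scaled to exon length and to the total count of the library, and intervals are exact 95% Poisson or binomial intervals that cover counting error only, since PCR copies were not separated. At this depth the interval of a level reached no further than 17.8% from its value, except for 3 of the 72 values that rested on fewer than 100 counts, which were Alcam in clusters 2 and 5 and Thy1 in cluster 6. Cluster 5 stood apart in composition. There, 34.8% of the counts fell on Rn18s-rs5, Lars2 and mmu-mir-689-2, and these 3 loci took 10.4% in cluster 2 and at most 1.91% in the others. A larger share on a few loci lowers the RPKM of all other genes. TMM factors, which rescale libraries by the bulk of their genes, raised log2 levels by 0.44 in cluster 5 and 0.37 in cluster 6 and lowered them by 0.68 in the input. The input also stood apart, with at least 3 counts for 65.8% of 991 olfactory receptor genes, against 1.82% to 26.3% in the sorted libraries.

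The stromal label was checked against fixed markers. All 8 genes of the stromal list (Pdgfra, Pdgfrb, Lepr, Cxcl12, Kitl, Col1a1, Col1a2 and Col3a1) exceeded RPKM 2 in at least 1 sorted library, and their summed RPKM ran from 5944 in cluster 2 to 22365 in cluster 6, against 2490 in the input. Collagen genes make up most of these sums, and in cluster 6 Col1a1, the most abundant, was at 15952 and Col1a2 at 6087. The sum hides 4 genes that went the other way, since Pdgfrb (7.18), Cxcl12 (5.04), Kitl (0.980) and Col3a1 (302) were the lowest of the 7 clusters in cluster 6. In the input, Pdgfra (14.1), Lepr (9.0) and Cxcl12 (27.0) were above several sorted clusters. Genes of cells that the gates should exclude were also counted. The 8 neutrophil genes, led by S100a9, summed to 11249 in cluster 3 and to 30376 in cluster 7, and the 8 erythroid genes, led by Hba-a1, to 1594 in cluster 6 and to 68520 in cluster 5. In the input the neutrophil genes summed to 44408, above every sorted library, but the erythroid genes to 690, below every sorted library. Endothelial genes were low, since 4 of 8 exceeded RPKM 2 and the 8, led by Pecam1, summed to between 3.05 in cluster 6 and 13.8 in cluster 1. In bulk RNA, a change in the number of cells of 1 type and a change in RNA per cell cannot be told apart.

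Of the 9 genes, 8 exceeded RPKM 2 in at least 1 sorted library, and Alcam did not. All 8 differed by more than 2-fold in RPKM + 1 between their highest and lowest sorted library. This share stood beside 70.6% of the 12360 genes that passed the same filter, so that a range above 2-fold was common. With TMM factors or DESeq2's size factors, 6 of the 9 exceeded 2-fold, beside 56.8% and 55.8% of all genes tested, because Eng and Itgav no longer did. The median fold over the 8 genes was 4.92, and over all genes tested it was 2.39. Icam1 (19.2-fold), Thy1 (13.9-fold) and Vcam1 (6.61-fold) ranged most widely, at percentiles 98.5, 97.8 and 93.7 of all genes tested. Cd200 and Cd44 followed at percentiles 90.8 and 88.3. Cd24a, Eng and Itgav lay at percentiles 62.0, 36.8 and 32.9, within the bulk of the genes.

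**Figure D1:**
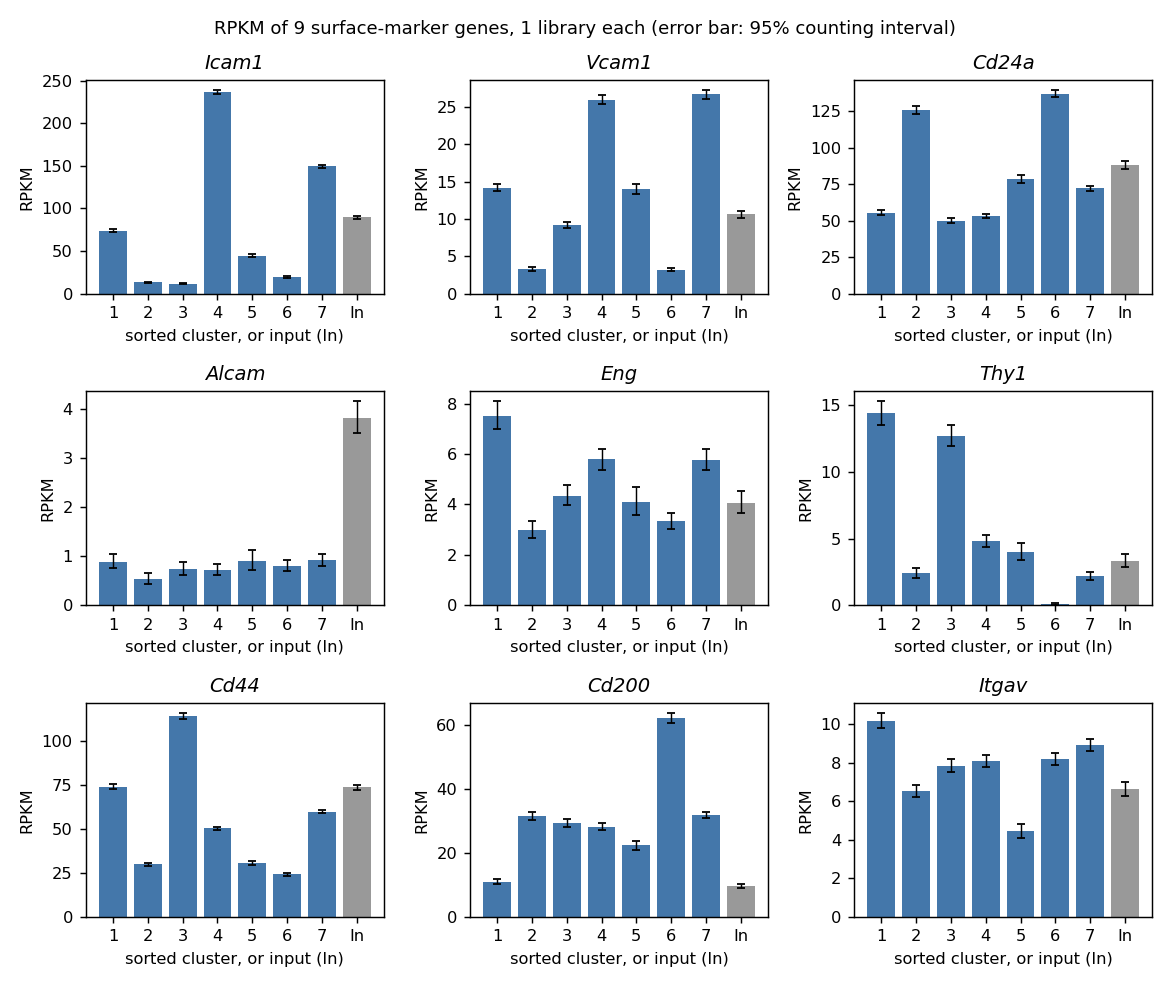
RPKM of each of the 9 genes (vertical axis, from 0, with its own scale in each panel) in the sorted clusters 1 to 7 and the input (In). Each bar is 1 library and the error bars are exact 95% Poisson intervals. Icam1 and Vcam1 were highest in clusters 4 and 7, Thy1 in clusters 1 and 3, Cd44 in cluster 3 and Cd200 in cluster 6, whereas Alcam was highest in the input.

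Icam1 (ENSMUSG00000037405, GRCm38 chromosome 9, 21015985 to 21028817, plus strand) had RPKM of 73.9, 13.6, 11.4, 237, 44.5, 19.7 and 149.6 in clusters 1 to 7, and 89.7 in the input. It was high in clusters 4 and 7, intermediate in clusters 1 and 5, and low in clusters 6, 2 and 3. Cluster 4 exceeded cluster 3 by a ratio of 20.8 (19.7 to 21.9), and the order of all 7 clusters was the same with TMM factors and with DESeq2's size factors. No interval between neighbours in that order included a ratio of 1, and 16 of the 21 pairs of clusters differed by more than 2-fold in Icam1, beside 19.5% of all gene and pair combinations tested. An antisense gene (ENSMUSG00000110790) shares 511 bases (11.7%) of the Icam1 exons but had no more than 11 counts in any sorted library. Vcam1 (ENSMUSG00000027962, chromosome 3, 116109949 to 116129688, minus strand) had RPKM of 14.2, 3.29, 9.20, 26.0, 14.0, 3.19 and 26.7, and 10.6 in the input. Clusters 7 and 4 were again the highest and could not be ordered, with a ratio of 1.03 (0.995 to 1.06) by total count and the reverse order with TMM factors. Clusters 2 and 6 were the lowest, and their order also turned. Between the highest and the lowest cluster the Vcam1 ratio was 8.36 (7.80 to 8.97).

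The integrins that bind ICAM-1 or VCAM-1 are made mostly by blood cells and were given by 7 genes, of which 5 exceeded RPKM 2 and all 5 of these ranged over more than 2-fold, beside 70.6% of all genes tested. Itgb2, the β chain of the ICAM-1 receptors LFA-1 and Mac-1, was both the most abundant and the most variable, at RPKM 10.2, 11.6, 7.81, 27.5, 12.6, 35.8 and 75.7 in clusters 1 to 7 and 78.1 in the input. Cluster 7 was thus high for Icam1, Vcam1 and Itgb2, whereas cluster 6 was low for Icam1 and Vcam1 but second to cluster 7 for Itgb2. Itga9, another gene of this list, was instead highest in cluster 1 at RPKM 7.76 and lowest in cluster 6 at 0.977, with 1.66 in the input. Markers of macrophages, which carry ICAM-1 and VCAM-1, moved partly with both genes. The 7 macrophage genes, 6 of them above RPKM 2 and led by Cd68, summed to 24.7, 19.6, 16.6, 31.0, 35.2, 29.1 and 81.8, with r of 0.68 with Icam1 and 0.59 with Vcam1 over the 7 sorted libraries. Not all of these genes followed Icam1, since C1qb (RPKM 3.84) and C1qc (0.923) were lowest in cluster 4. Cd68 in cluster 4 (18.3) was second to cluster 7. Endothelial genes summed to 4.13 in cluster 4, where Icam1 was highest, and to 9.54 in cluster 7. Their list had r of -0.01 with Icam1 and 0.36 with Vcam1. The 7 osteoblast genes, led by Bglap, ran against Icam1 with r of -0.83 and against Vcam1 with -0.69, and the neutrophil list had r of 0.56 with Icam1 and 0.48 with Vcam1. The stromal list had r of -0.43 with Icam1 and -0.42 with Vcam1, and the B lineage list 0.40 and 0.03. The part of these cells in the levels of Icam1 and Vcam1 was not tested.

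Promoter windows of RefSeq (GRCm38.p6), from 250 bases before to 50 bases after the start, were present for 6 of the 9 genes, namely Alcam, Cd200, Cd44, Eng, Icam1 and Itgav. Vcam1, Thy1 and Cd24a were not matched. The windows of Icam1, Cd200 and Cd44 are shown because these 3 genes ranged most widely among the 6 and were highest in different clusters. They lie at chr9:21015690-21015989 (plus strand), chr16:45409004-45409303 (minus strand) and chr2:102901616-102901915 (minus strand), and capitals mark matches to the motifs named after them.
Icam1: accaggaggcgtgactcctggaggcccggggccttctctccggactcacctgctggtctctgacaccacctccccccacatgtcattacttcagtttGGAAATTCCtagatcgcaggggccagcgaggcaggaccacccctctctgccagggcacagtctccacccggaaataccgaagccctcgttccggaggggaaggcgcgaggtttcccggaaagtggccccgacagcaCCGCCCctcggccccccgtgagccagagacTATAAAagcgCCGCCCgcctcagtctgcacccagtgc
Cd200: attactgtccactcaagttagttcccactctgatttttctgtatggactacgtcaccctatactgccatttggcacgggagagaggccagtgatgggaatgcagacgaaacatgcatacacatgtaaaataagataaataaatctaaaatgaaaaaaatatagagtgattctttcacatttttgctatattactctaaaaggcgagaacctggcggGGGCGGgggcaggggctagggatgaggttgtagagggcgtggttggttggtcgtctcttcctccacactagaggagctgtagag
Cd44: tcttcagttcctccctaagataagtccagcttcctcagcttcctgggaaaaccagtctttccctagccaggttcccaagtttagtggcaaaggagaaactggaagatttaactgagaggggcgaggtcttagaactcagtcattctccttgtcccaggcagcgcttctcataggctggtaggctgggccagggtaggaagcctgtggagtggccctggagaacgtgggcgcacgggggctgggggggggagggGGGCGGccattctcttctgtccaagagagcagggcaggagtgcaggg
Both strands of all 6 windows were searched for 6 motifs, and no 2 matches overlapped. The κB motif was searched as GGAANTTCC, and Icam1 held 1 match that begins 153 bases before the start, whereas 0.928% of 32851 windows hold one. The same window held the TATA box letters TATAAA beginning at base 14 after the start, which 13.6% of windows hold. For Icam1 the RefSeq start at 21015940 lies 45 bases before the gene start in the count files, so this match falls before the latter. It also held the GC box, searched as GGGCGG and held by 35.7% of windows, beginning 17 bases before and at base 24 after the start. Cd200 and Cd44 each held 1 GC box and no match to the other motifs. Among the windows not shown, Alcam held 2 GC boxes, Itgav 1 and Eng no match. For Alcam the RefSeq start at 52453081 lies inside the gene as counted, which starts at 52454074, and the window does not reach the latter. None of the 6 windows held the AP-1 letters TGANTCA, which 7.81% of all windows hold. The Runx letters were searched as TGTGGT, held by 16.8% of all windows and by none of the 6. The E-box, searched as CACGTG, is held by 7.15% of all windows and was likewise in none of the 6. A match is a run of letters and not a measured binding site.

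Icam1 and Cd24a encode antigens that the sort itself used, which allows their RNA to be set beside the gates. Among the clusters with a CD54 gate, cluster 4 (positive) exceeded both negative clusters, by a ratio of 20.8 over cluster 3 and 1.58 (1.56 to 1.61) over cluster 7. Cluster 5 (positive) exceeded cluster 3 by 3.90 (3.65 to 4.17) but lay below cluster 7, which was higher by 3.36 (3.23 to 3.51). The lowest positive cluster was thus below the highest negative one by a log2 ratio of -1.75 (-1.81 to -1.69), and by -1.27 with TMM factors. Without the cluster 5 library that ratio was 0.66. Surface protein was not measured in these libraries.

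Cd24a (ENSMUSG00000047139, chromosome 10, 43578284 to 43584265, plus strand) had RPKM of 55.6, 125.9, 49.9, 53.1, 78.5, 137 and 72.2 in clusters 1 to 7, and 88.2 in the input. Clusters 6 and 2 were the highest, although cluster 2 was gated as CD24-, and cluster 3 was the lowest although it was gated as CD24+. Cluster 6 (positive) exceeded all 5 negative clusters, from a ratio of 1.09 (1.06 to 1.12) over cluster 2 to 2.58 (2.49 to 2.67) over cluster 4. Cluster 3 lay below all 5 by total count, with cluster 2 higher by 2.52 (2.43 to 2.63) and cluster 1 by 1.11 (1.06 to 1.17), although with TMM factors cluster 3 exceeded cluster 1 by a ratio of 1.01. These levels are uncertain in 1 respect. The Cd24a coding sequence of 231 bases has 2 further places in the mouse genome (NCBIM37) with at least 90% identity over at least 100 bases, up to 96.8% identity and 219 bases, and how reads shared between such places were counted is not given in the sources used here. No such place was found for the other 8 genes. The 7 B lineage genes, led by Cd79b, summed to between 33.2 in cluster 3 and 112 in cluster 7, with r of 0.50 with Cd24a, and the erythroid and neutrophil lists had r of -0.10 and 0.14. The T cell list had r of 0.57, the megakaryocyte list -0.58 and the endothelial list -0.51. Their part in the Cd24a level was not tested.

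**Figure D2:**
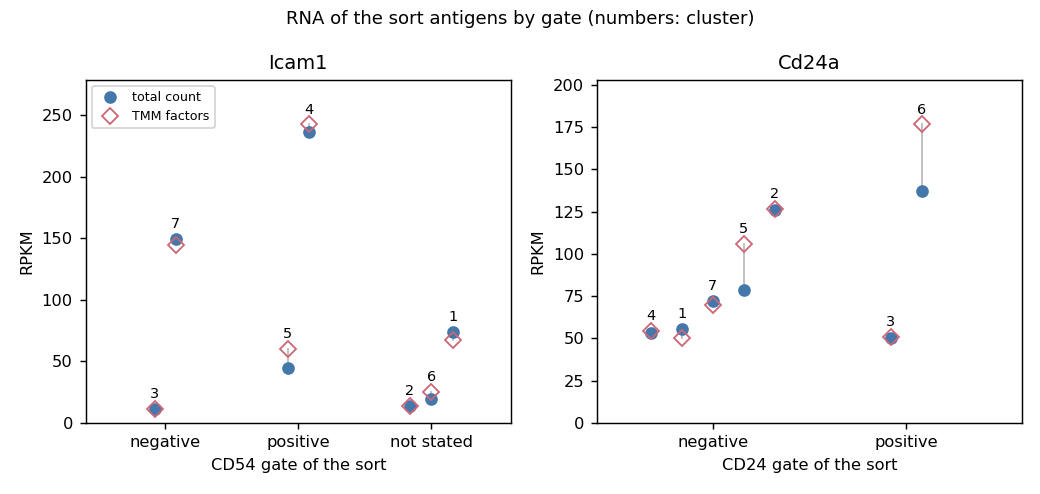
RPKM (vertical axis, from 0) of Icam1 by CD54 gate and of Cd24a by CD24 gate, with the number of each cluster above its points. Circles are scaled by total count and diamonds by TMM factors. Cluster 7, gated as CD54-, lies above cluster 5, gated as CD54+, and for CD24 cluster 6 is the highest and cluster 3 among the lowest although both were gated as positive.

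Cd200 encodes an immunoglobulin family ligand that restrains myeloid cells through the receptor Cd200r1. The gene (ENSMUSG00000022661, chromosome 16, 45382135 to 45409053, minus strand) had RPKM of 11, 31.5, 29.3, 28.2, 22.4, 62.2 and 31.8 in clusters 1 to 7, and 9.62 in the input. It was highest in cluster 6, lowest in cluster 1, and close together in clusters 7, 2, 3 and 4. Cluster 6 exceeded cluster 7, the next by total count, by a ratio of 1.96 (1.88 to 2.04) and cluster 1 by 5.66 (5.27 to 6.07). Clusters 7 and 2 (1.01, 0.960 to 1.06) and clusters 3 and 4 (1.04, 0.986 to 1.10) could not be ordered. The genes whose pattern over the 7 libraries was most like that of Cd200 were Alpl (alkaline phosphatase, r = 0.97), Spp1 (osteopontin, r = 0.97) and Hpgd (a prostaglandin dehydrogenase, r = 0.94). Alpl RPKM was 404 in cluster 6 and 26.5 in cluster 1, and Spp1 RPKM was 2681 and 194. The osteoblast list, to which Alpl belongs, had r of 0.64 with Cd200. Its summed RPKM was highest in cluster 3 (24728) and cluster 6 (22825), most of it from Bglap and Bglap2, which were highest in cluster 3. The other 5 of its 7 genes (Ibsp, Sp7, Alpl, Dmp1 and Phex) were highest in cluster 6, as Cd200 was. The endothelial, megakaryocyte and erythroid lists had r of -0.77, -0.74 and -0.60 with Cd200. The part of these cells in the Cd200 level was not tested. Among the 4 counter-receptors of Alcam, Cd200 and Cd24a, Cd200r1 stayed at or below RPKM 1.48 in the sorted libraries, with a fold of 2.04 in RPKM + 1. The 2 genes above RPKM 2, Selp and Siglecg, both ranged over more than 2-fold, as did 70.6% of all genes tested. Selp (P-selectin), the most abundant by mean and the most variable, reached RPKM 6.67 in cluster 3.

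Thy1 encodes a small lipid-anchored glycoprotein of fibroblasts, stromal cells, neurons and mouse T cells. The gene (ENSMUSG00000032011, chromosome 9, 44043384 to 44048579, plus strand) had RPKM of 14.4, 2.40, 12.7, 4.82, 3.98, 0.105 and 2.16 in clusters 1 to 7, and 3.33 in the input. Clusters 1 and 3 stood above all others, and cluster 6 was close to no signal, with 10 counts. Cluster 1 exceeded cluster 6 by a ratio of 136, with a wide interval (73.9 to 285) set by those counts, and cluster 7, the next lowest, exceeded cluster 6 by 20.5 (10.9 to 43.3). Clusters 1 and 3 differed by a ratio of 1.13 (1.04 to 1.23), which was 1.01 with TMM factors and turned with DESeq2's size factors. T cell genes gave little signal. The 6 of them summed to between 1.58 in cluster 3 and 4.22 in cluster 2, Lck was the most abundant, Cd4 and Cd8a had 0 counts in cluster 5, and r with Thy1 was -0.36. Megakaryocyte genes, led by Pf4, summed to 63.3, 37.9, 88.1, 19.2, 60.2, 6.37 and 25.4 and had r of 0.86 with Thy1, endothelial genes 0.73 and B lineage genes -0.62. Their part in the Thy1 level was not tested.

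Cd44 (ENSMUSG00000005087, chromosome 2, 102811141 to 102901665, minus strand) had RPKM of 73.8, 29.8, 114, 50.1, 30.3, 24.0 and 59.7 in clusters 1 to 7, and 73.6 in the input. As for Thy1, clusters 3 and 1 were the highest and cluster 6 the lowest by total count, but all 7 libraries were well above the filter. The ratio of cluster 3 to cluster 6 was 4.75 (4.61 to 4.90), and clusters 5 and 2 could not be ordered (1.02, 0.969 to 1.07). With TMM factors clusters 2 and 6 changed places at the bottom. Of 10 genes that make, cut or bind hyaluronan or link CD44 to the cytoskeleton, 9 exceeded RPKM 2 and 6 ranged over more than 2-fold, 5 with TMM factors, shares close to the 70.6% and 56.8% of all genes tested. Has1, a hyaluronan synthase, was the most abundant and the most variable, at RPKM 869.7, 96.9, 1621, 896, 160.1, 105 and 646 in clusters 1 to 7 and 433 in the input. It was highest in cluster 3 and low in clusters 2, 5 and 6, as Cd44 was. The megakaryocyte and endothelial lists had r of 0.61 and 0.56 with Cd44, and their part in its level was not tested. Tnfaip6, whose protein binds hyaluronan, was instead highest in cluster 4 at RPKM 696.

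Eng encodes a coreceptor for BMP and TGF-β ligands. The gene (ENSMUSG00000026814, chromosome 2, 32646595 to 32682669, plus strand) had RPKM of 7.52, 3.0, 4.35, 5.78, 4.10, 3.33 and 5.77 in clusters 1 to 7, and 4.07 in the input. Cluster 1 was the highest, clusters 4 and 7 followed and could not be ordered (1.00, 0.906 to 1.11), and cluster 2 was the lowest. The ratio of cluster 1 to cluster 2 was 2.51 (2.19 to 2.87), and 2.26 with TMM factors, where the fold of RPKM + 1 was 1.94. Of the 21 pairs of clusters, 1 differed by more than 2-fold in Eng by total count, beside 19.5% of all gene and pair combinations tested. With TMM factors 0 did. All 5 genes of its receptor complex exceeded RPKM 2 and ranged over more than 2-fold, 4 with TMM factors, beside 70.6% and 56.8% of all genes tested. Tgfbr2, a TGF-β receptor, was the most abundant with RPKM 23.2 in cluster 1 and 6.46 in cluster 5. Acvrl1, the receptor ALK1, was the most variable with RPKM 16 in cluster 4 and 2.24 in cluster 2. Endothelial cells also make Eng and Acvrl1, and the endothelial list had r of 0.43 with Eng, with Pecam1 RPKM at 2.72 in cluster 1 and 1.5 in cluster 4. The whole list summed to 13.8 in cluster 1, its highest and that of Eng, and to 4.13 in cluster 4. The osteoblast list ran against Eng, with r of -0.82. The part of these cells in the Eng level was not tested. Fpgs, on the opposite strand, shares 61 bases (1.51%) of the Eng exons and had up to 544 counts in a sorted library, against 213 to 776 for Eng.

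Itgav (ENSMUSG00000027087, chromosome 2, 83724397 to 83806916, plus strand) had RPKM of 10.2, 6.54, 7.85, 8.09, 4.43, 8.21 and 8.93 in clusters 1 to 7, and 6.62 in the input. It varied least of the 8 genes above the filter. Cluster 1 exceeded cluster 5 by a ratio of 2.30 (2.10 to 2.51), but cluster 5 is the library in which 3 loci took 34.8% of the counts, and with TMM factors the ratio of highest to lowest was 1.77 and cluster 6 became the highest. Clusters 6 and 4 (1.01, 0.963 to 1.07) and clusters 4 and 3 (1.03, 0.974 to 1.09) could not be ordered. The erythroid list, whose sum was highest in cluster 5, had r of -0.62 with Itgav, and its part was not tested. Gm13684 shares 634 bases (5.90%) of the Itgav exons on the opposite strand and had no more than 147 counts. Integrin αV pairs with 5 β chains, of which 3 (Itgb1, Itgb3 and Itgb5) exceeded RPKM 2 and all 3 ranged over more than 2-fold, beside the same 70.6% of all genes. Itgb1 was the most abundant, at RPKM 167 in cluster 7 and 58.5 in cluster 5. Itgb3 was the most variable, at RPKM 12.6, 2.70, 14.1, 2.91, 1.64, 1.27 and 4.12, high in clusters 1 and 3 and lowest in cluster 6, as Thy1 was. All 8 matrix ligands of αV integrins ranged over more than 2-fold, by total count and with TMM factors, beside 70.6% and 56.8% of all genes tested. Of these ligands Spp1, the most abundant, was highest in cluster 6, whereas Fbn1 (fibrillin), the most variable, was highest in cluster 3 at RPKM 72.8 and lowest in cluster 6 at 3.84.

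Alcam (ENSMUSG00000022636, chromosome 16, 52248996 to 52454074, minus strand) had RPKM of 0.888, 0.537, 0.741, 0.716, 0.897, 0.803 and 0.917 in clusters 1 to 7, and 3.81 in the input. It was the only one of the 9 genes below RPKM 2 in every sorted library. Neighbouring clusters could be ordered in 1 of 6 steps, the one between clusters 4 and 2. The input exceeded the sorted libraries by ratios from 4.16 over cluster 7 to 7.09 over cluster 2 by total count, and from 1.97 over cluster 5 to 4.42 over cluster 2 with TMM factors. Among the cell type lists, the macrophage list had the r furthest from 0 with Alcam (0.61). In the input, olfactory receptor genes, which serve the sense of smell, had a median RPKM of 0.165 and a 90th percentile of 1.86, against a median of 0 in every sorted library. The part of that signal, or of macrophages, in the Alcam level was not tested.

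The pattern of each cluster across the 9 genes was then described. Cluster 1 was the highest for Eng, Thy1 and Itgav and the lowest for Cd200. Cluster 6 was the highest for Cd24a and Cd200 and the lowest for Vcam1, Thy1 and Cd44. Cluster 3 was the highest for Cd44 and the lowest for Icam1 and Cd24a, and cluster 4 was the highest for Icam1. With TMM factors cluster 2 was the lowest for Vcam1 and Cd44, cluster 1 the lowest for Cd24a and cluster 6 the highest for Itgav. Mouse skeletal stem cells are usually sorted as positive for αV integrin and CD200 and negative for Thy1, CD105 and 6C3, the product of Enpep. In cluster 6, Cd200 was at RPKM 62.2 and Itgav at 8.21, while Thy1 was at 0.105, Eng at 3.33 and Enpep at 1.40. In cluster 1, Thy1 was at 14.4, Eng at 7.52 and Enpep at 8.62, each the highest of the 7 libraries by total count, and Cd200 was at 11. Enpep was close behind in cluster 7, at 8.40. Itgav was also highest in cluster 1 by total count, at 10.2. Cluster 2 was at RPKM 31.5 for Cd200, 6.54 for Itgav, 2.40 for Thy1, 3.0 for Eng and 1.16 for Enpep. The same genes, in that order, were at 29.3, 7.85, 12.7, 4.35 and 2.71 in cluster 3. They were at 28.2, 8.09, 4.82, 5.78 and 4.63 in cluster 4, and at 22.4, 4.43, 3.98, 4.10 and 1.29 in cluster 5. In cluster 7 they were at 31.8, 8.93, 2.16, 5.77 and 8.40. Osteoblast genes summed to 22825 in cluster 6, 6483 in cluster 2 and 684 in cluster 1.

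**Figure D3:**
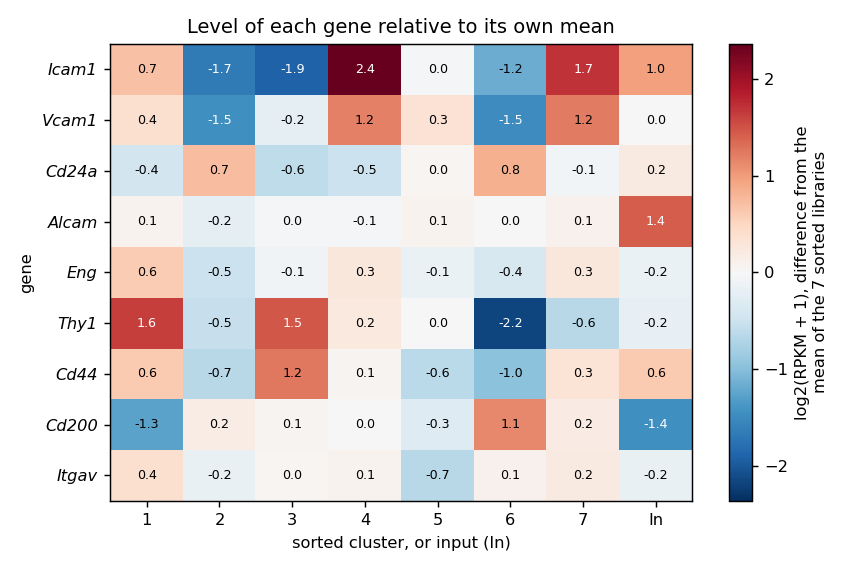
Level of each gene (rows) in each library (columns) as log2(RPKM + 1) minus the mean of the 7 sorted libraries, with red for above and blue for below that mean and the difference printed in each cell. Icam1 and Thy1 span the widest differences, clusters 1 and 6 are opposite for Thy1, Cd44 and Cd200, and Alcam differs mainly in the input.

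Each sorted library was compared with the input, at a threshold of 2-fold in RPKM + 1. Of 63 values, 11 were higher than the input and 16 were lower, beside 4.59% and 47.9% of all gene values tested. In clusters 1 to 7, the number of the 9 genes higher than the input was 1, 1, 2, 3, 1, 1 and 2, beside 5.53%, 7.06%, 4.33%, 4.68%, 3.21%, 3.82% and 3.43% of all genes. The number lower was 1, 4, 2, 1, 2, 5 and 1, beside 41.6%, 47.9%, 46.5%, 45.5%, 61%, 53.6% and 39.4%. By total count cluster 4 had the most of the 9 genes above the input and cluster 6 the most below it. The median log2 ratio of all genes to the input lay between -1.24 in cluster 5 and -0.60 in cluster 7, so that most genes were lower than the input by total count, and with TMM factors it lay between -0.18 and 0.14. With TMM factors 19 values were higher and 5 lower, beside 13.6% and 27.7% of all gene values. The number of the 9 genes higher was then 2, 2, 3, 3, 3, 3 and 3 in clusters 1 to 7, beside 13.4%, 16.7%, 13.8%, 14.3%, 12.5%, 14.4% and 10.1% of all genes. The number lower was 0, 2, 1, 0, 0, 2 and 0, beside 27.3%, 28.8%, 29.5%, 27.3%, 26.6%, 28.3% and 25.9%. By the number higher, cluster 4 thus no longer stood above clusters 3, 5, 6 and 7. Cd200 was higher in the 6 clusters 2 to 7 under both scalings, by ratios of 2.32 (2.10 to 2.57) in cluster 5 to 6.47 (5.96 to 7.02) in cluster 6 by total count, which were 5.02 and 13.3 with TMM factors. TMM factors raised every ratio to the input by the same factor within a cluster, from 1.45 in cluster 1 to 2.16 in cluster 5, and the ratios that follow are by total count. Icam1 was higher in cluster 4 (2.64, 2.58 to 2.71), Vcam1 in cluster 4 (2.44, 2.32 to 2.57) and cluster 7 (2.51, 2.39 to 2.64), and Thy1 in cluster 1 (4.32, 3.71 to 5.05) and cluster 3 (3.82, 3.28 to 4.47), again under both scalings. Icam1 was lower than the input in clusters 2, 3 and 6 and Thy1 in cluster 6 under both scalings. The lower values of Vcam1 in clusters 2 and 6, of Cd44 in clusters 2, 5 and 6, and of Alcam in all clusters but cluster 2 did not pass 2-fold with TMM factors. Cd24a, Eng and Itgav passed in no cluster by total count. The 8 values that were higher with TMM factors alone were Cd24a in clusters 2 and 6, Eng in cluster 1, Itgav in cluster 6, Icam1 in cluster 7, Vcam1 and Thy1 in cluster 5 and Cd44 in cluster 3.

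**Figure D4:**
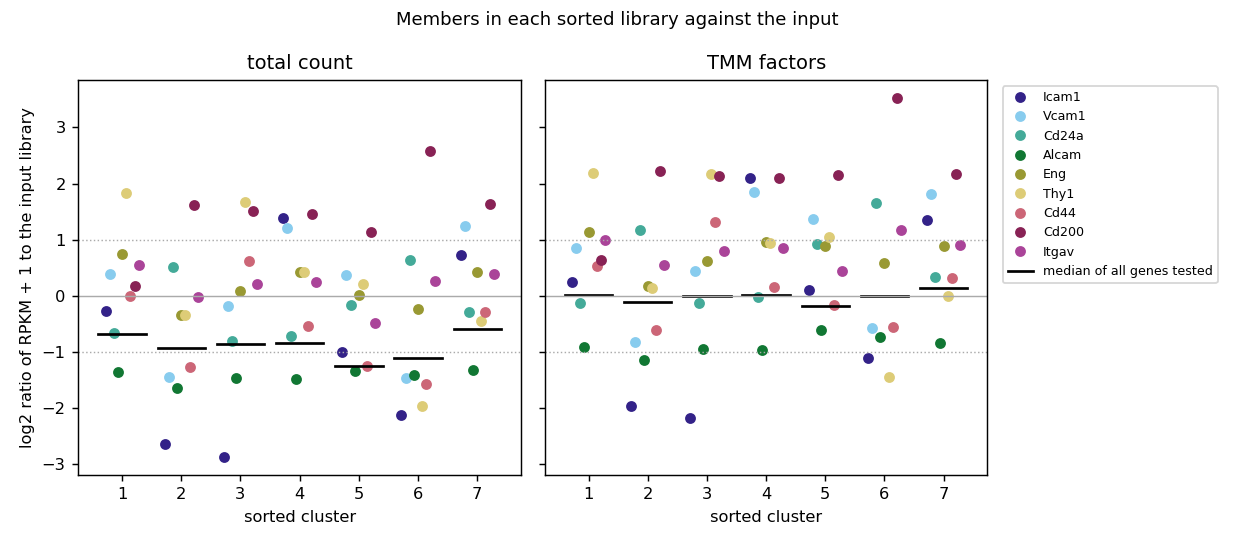
Log2 ratio of RPKM + 1 to the input (vertical axis) for the 9 genes in clusters 1 to 7, by total count (left) and with TMM factors (right). The black lines are the medians of all genes tested and the dotted lines mark 2-fold. By total count the medians lie below 0 in all 7 clusters, and Cd200 lies above the upper dotted line in clusters 2 to 7 in both panels.

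Pearson's r of log2(RPKM + 1) between the genes was taken over the 7 sorted libraries, as a description of 36 pairs that share libraries, depth and composition. Icam1, Vcam1 and Eng had similar patterns, with r of 0.86 for Icam1 and Vcam1, 0.80 for Vcam1 and Eng and 0.75 for Icam1 and Eng. Thy1 and Cd44 had r of 0.81, and neither followed Icam1 closely (0.09 and 0.13). Cd24a ran opposite to Cd44 (-0.86) and Thy1 (-0.85), and Cd200 opposite to Thy1 (-0.83). Cd24a and Cd200 had r of 0.62. With TMM factors the pairs named kept their sign, with r of 0.85 for Icam1 and Vcam1, 0.77 for Thy1 and Cd44 and -0.86 for Cd24a and Cd44.

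**Figure D5:**
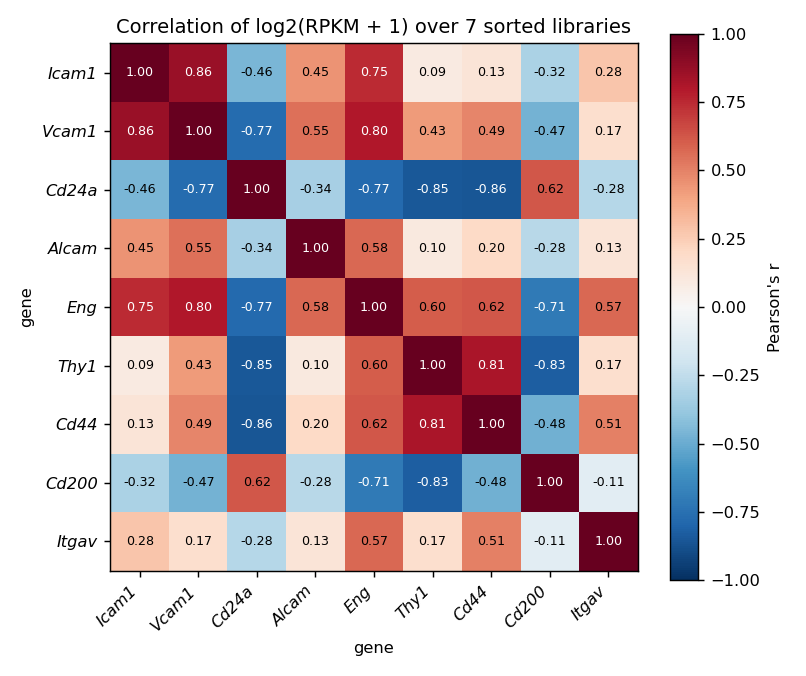
Pearson's r of log2(RPKM + 1) over the 7 sorted libraries for each pair of the 9 genes (rows and columns), with red for positive and blue for negative values. Icam1, Vcam1 and Eng form a block of positive values, and Cd24a is negative with all genes other than Cd200 by total count, although with Alcam its r was 0.29 with TMM factors.

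The genes most like each of the others were taken among 8054 genes (8055 for Alcam) with a symbol that exceeded RPKM 2 and ranged over more than 2-fold. Icam1 was followed most closely by Egflam (a matrix protein, r = 0.99), Abcc9 (a subunit of potassium channels, 0.98) and Hsd11b2 (which inactivates glucocorticoids, 0.97), all 3 at low levels of no more than RPKM 3.18. Vcam1 was followed by Cxcl5 (a neutrophil chemokine, 0.98), Rspo1 (a Wnt agonist, 0.98) and Dram1 (0.97). Cd44 was followed by Rspo2, Cdh13 and Dcbld2 at 0.99 each, and Cdh13 (T-cadherin) ran from RPKM 52.3 in cluster 3 to 2.52 in cluster 6. For Thy1 the nearest genes were Adamts5 (an aggrecanase, 0.98), Bcr and Rassf8, and for Eng they were Adamts12 (0.98), Lgi4 and Rbms3. Cd24a was nearest to Snai1 (a transcription factor of mesenchymal cells, 0.95), Fbp1 and Klk10, Itgav to Nisch (0.99), Sufu and Sema4c, and Alcam to Mme (0.91), Rhov and Aldh1b1. Genes with r above 0.95 by total count numbered 80 for Cd44, 47 for Itgav, 31 for Eng, 24 for Icam1, 16 for Vcam1, 14 for Thy1 and 2 for Cd200, and there were 0 for Cd24a and Alcam. With TMM factors r was 0.90 to 0.93 for the 3 genes nearest Eng and 0.76 for Mme with Alcam. It was instead higher for Dram1 with Vcam1 (0.99) and for Snai1 with Cd24a (0.96). Such values over 7 libraries say nothing of shared control.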

How the data were processed

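The authors deposited raw counts of reads on the exons of each Ensembl gene, with positions in GRCm38 and exon lengths. By their methods, low-quality bases were removed, TopHat2 aligned the reads to mm9 and levels were given as RPKM, and the submitters' processing notes also name Partek 2.2. The counting tool and its use of strand are not given in the sources used here. RPKM was computed here from the deposited counts, by total count on genes and exon length, and used as log2(RPKM + 1). Thresholds were RPKM above 2 and a fold above 2, as in the study.

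The genes and lists were chosen with earlier results of these data known. Named were the 9 genes, the most abundant gene of each list by mean RPKM, the most variable gene of each related list with at least 50 counts, the sort antigens, and the 3 genes most like each of the 9 by Pearson's r. Tnfaip6, Cd200r1, Siglecg, Itgb5, Enpep, Itga9, C1qb, C1qc and the other genes of the stromal and osteoblast lists were added after their values were seen. With 1 library for each population no test was used, and edgeR and DESeq2 gave scaling factors only. Totals ran from 12833648 to 33238133 counts. On simulated counts of 49315 genes, 200 of 200 genes raised 4-fold were recovered for the range over 7 libraries and 200 of 200 for cluster 4 over the input. Recovery of a 4-fold change at a 2-fold threshold checks the calculation only and says nothing of the spread between sorts. Alternatives were TMM and DESeq2 factors, totals without the 3 loci, a pseudocount of 0.1, no filter, equal depth and omission of cluster 5. Software was R 4.3.3 with DESeq2 1.42.0 and edgeR 4.0.16, blastn 2.17.0, and Python 3.11.15 with scipy 1.17.1, pandas 2.3.3, numpy 2.4.6 and matplotlib 3.10.9.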

Additional observations from a re-analysis of the deposited data

How the results depend on the processing

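No paired analysis was possible because there was only 1 library of each sorted population. For the same reason no replicate could be left out, and the cluster 5 library was left out instead. Of 31 recomputed values, 22 stayed close to the reported value (counts within 1.5 times, log2 ratios within the counting interval), 8 moved further and 1 reversed. The count of genes ranging over 2-fold, 8 as reported, was 6 with TMM factors, DESeq2's size factors or totals without the 3 loci, 7 at an equal depth of 12833648 counts or without cluster 5, and 8 with a pseudocount of 0.1 or no filter. Values above the input, 11 as reported, numbered 19 with TMM factors and 19 with DESeq2's size factors, and values below it, 16 as reported, numbered 5 and 5. The log2 ratio of the lowest CD54+ to the highest CD54- cluster for Icam1, -1.75 as reported, was -1.27 with TMM factors, -1.14 with DESeq2's size factors and -1.14 without the 3 loci, and reversed to 0.66 when cluster 5 was left out, since cluster 4 was then the only positive cluster. The same ratio for Cd24a and CD24, -1.34 as reported, was -1.47 without the 3 loci. Of 54 neighbouring pairs of clusters, 17 had intervals that included a ratio of 1, which counting error could not order. TMM factors reversed 12 pairs and DESeq2's size factors 13, of which 5 and 6 had intervals that excluded 1.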

Other observations

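Other surface molecules were described by the same counts. Of 12 further cell adhesion molecules of the immunoglobulin family, 8 exceeded RPKM 2 in a sorted library and 3 of these ranged over more than 2-fold, or 4 with TMM factors, beside 70.6% and 56.8% of all genes tested. Jam3, a junction protein, was the most abundant at RPKM 12.7 in cluster 4 and 4.29 in cluster 5, and Cadm1 was the most variable at RPKM 10.8 in cluster 6 and 1.84 in cluster 1, the clusters that were also the highest and lowest for Cd200. Of 10 other stromal sort markers, 9 exceeded RPKM 2 and all 9 of these ranged over more than 2-fold, as did the 8 sort antigens of the study, beside the same 70.6%. Cd9, a tetraspanin, was the most abundant by mean RPKM over the sorted libraries. Ly6a, which encodes Sca-1, was the most variable, at RPKM 931 in cluster 3 and 4.98 in cluster 6, the cluster in which Thy1 and Cd44 were also the lowest by total count. Cluster 6 was gated as Sca-1-, so its Ly6a level is not independent of the sort. Among the sort antigens, Entpd1 (CD39) was highest in cluster 7 (13.9) and lowest in cluster 3 (2.27), as were Il1r2 (CD121b, 177 and 21.9) and Ly6c2 (116 and 36.9). Ly6c1 was highest in cluster 3 (409.9) and lowest in cluster 6 (6.44), and Pdgfra was highest in cluster 1 (28.1) and lowest in cluster 2 (4.37). Ptprc (CD45) had its highest sorted RPKM in cluster 7 (9.26) and its lowest in cluster 3 (1.69), with 13.5 in the input. Pecam1 (CD31) ran from 1.31 in cluster 6 to 3.84 in cluster 5, beside an input level of 4.08, although both antigens were gated out.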
